A study of Mus musculus with 13 samples.

Results

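Dentate granule cells are the principal neurons of the dentate gyrus, the entry station of the hippocampus. They receive input from the entorhinal cortex, send mossy fibres to CA3 pyramidal cells and hilar mossy cells, and are among the few neurons that go on being born in the adult rodent brain. Their identity is set by the homeodomain transcription factor Prox1, and mature granule cells are recognised by Calb1, the calcium buffer calbindin, and by a set of genes that are sparse in the pyramidal fields. The genes described here are 10 such markers: Prox1, Trpc6, Lct, Stxbp6, Dgkh, Ahcyl2, Dsp, Tdo2, C1ql2 and Calb1. Every probe set that the platform annotation gives to exactly 1 of these genes was taken, which was 1 probe set per gene, 10 of 35556 in all, from a table that covers 19938 genes. The genes were chosen on the difference between heterozygous and wild-type mice in these same arrays, which was known when they were proposed, so each difference between genotypes is given below as a description, with no test.

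The arrays (Affymetrix Mouse Gene 1.0 ST) measured RNA from whole hippocampus of 13 C57BL/6J mice, aged 1 to 2 months and fed standard chow. Heterozygous mice carried Kmt2d+/βGeo, a gene trap allele of the histone methyltransferase gene mutated in Kabuki syndrome. Experiment 1 held 3 heterozygous and 4 wild-type mice that were not injected, and experiment 2 held 3 heterozygous and 3 wild-type mice that had 3 injections of saline a day, as vehicle controls of another experiment. The labels call 12 mice female and leave the sex of 1, wild-type replicate 3 of experiment 1, unknown. Values are log2 intensities, in which 1 unit is a factor of 2 in brightness, and the brightness of one gene's probes cannot be set against that of another's. In this bulk tissue, fewer granule cells and less RNA per granule cell cannot be told apart.

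The targeted gene has 2 probe sets. The dimmer one read 7.36, 7.17 and 7.47 in heterozygous mice of experiment 1, against 7.87, 7.87, 7.87 and 7.90 in their wild-type controls. It read 7.88, 7.999 and 8.18 in heterozygous mice of experiment 2, against 8.76, 8.32 and 8.51 in wild-type mice. On this probe set the 2 genotypes did not overlap in either experiment, with the heterozygous mice lower. The brighter probe set went the other way in experiment 1, where every heterozygous mouse lay above every wild-type mouse by a small margin, and it overlapped in experiment 2. It averaged 9.91 ± 0.06 in heterozygous and 9.82 ± 0.01 in wild-type mice of experiment 1 (SD, n = 3 and 4), and 9.69 ± 0.17 in heterozygous and 9.63 ± 0.18 in wild-type mice of experiment 2 (SD, n = 3 each). Among the wild-type mice of experiment 1, 3 tied at 7.8743 on the dimmer probe set and 3 at 9.8153 on the brighter one. Their small SD may therefore not show the spread between mice. The position of either probe set relative to the trap was not analysed here.

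One array stood apart. Wild-type replicate 2 of experiment 1 had the highest value of all 13 arrays for 10 of 10 measured striatal markers, genes of the neighbouring striatum that are low in hippocampus. The dopamine receptor gene Drd1 read 10.84 there, against 7.41 to 7.72 on the other arrays of experiment 1, and Drd2 read 11.43, against 7.61 to 8.18. This array also had the lowest value of experiment 1 for 9 of the 10 granule cell genes, and the highest, 11.43, for Calb1, which striatal projection neurons are known to express too. The genotype differences of the 10 genes in experiment 1, and the counts of the marker lists there, are therefore given with and without it. What the striatal signal contributed to the granule cell values was not tested.

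All 10 genes were measured above the dimmest 30% of probe sets, and none had tied values within a group. The window from 250 bases before to 50 after the annotated start was read for the genes that RefSeq's table (GRCm38.p6) holds, 9 of the 10 with 14 starts between them. Calb1 had no entry. Windows were searched on both strands for CAGATG, the E-box read by neuronal basic helix-loop-helix factors, for TATAAA, and for TGACGTCA, the cyclic AMP response element. The 4 windows below are shown because they set CpG-rich starts, of a transcription factor and a synaptic protein, beside CpG-poor starts of 2 enzymes best known outside the brain. Capitals mark a searched motif on either strand.
Prox1 chr1:190170778-190171077 (-): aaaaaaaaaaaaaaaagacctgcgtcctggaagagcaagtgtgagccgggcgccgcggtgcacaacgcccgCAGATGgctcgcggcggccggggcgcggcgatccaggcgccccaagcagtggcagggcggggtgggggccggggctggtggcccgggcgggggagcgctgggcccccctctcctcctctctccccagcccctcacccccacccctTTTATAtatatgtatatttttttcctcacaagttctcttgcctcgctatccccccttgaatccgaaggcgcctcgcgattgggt
C1ql2 chr1:120340332-120340631 (+): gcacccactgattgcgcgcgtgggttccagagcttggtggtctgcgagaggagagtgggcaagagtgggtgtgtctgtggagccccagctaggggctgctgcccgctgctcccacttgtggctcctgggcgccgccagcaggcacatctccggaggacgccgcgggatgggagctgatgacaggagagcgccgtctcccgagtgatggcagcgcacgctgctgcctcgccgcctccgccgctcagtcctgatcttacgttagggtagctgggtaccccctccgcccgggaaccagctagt
Lct chr1:128328269-128328568 (-): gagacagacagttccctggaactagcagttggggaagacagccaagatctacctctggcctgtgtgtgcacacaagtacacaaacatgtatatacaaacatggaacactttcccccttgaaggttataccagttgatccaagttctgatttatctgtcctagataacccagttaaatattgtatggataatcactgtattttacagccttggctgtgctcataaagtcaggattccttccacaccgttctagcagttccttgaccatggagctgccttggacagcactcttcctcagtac
Tdo2 chr3:81975679-81975978 (-): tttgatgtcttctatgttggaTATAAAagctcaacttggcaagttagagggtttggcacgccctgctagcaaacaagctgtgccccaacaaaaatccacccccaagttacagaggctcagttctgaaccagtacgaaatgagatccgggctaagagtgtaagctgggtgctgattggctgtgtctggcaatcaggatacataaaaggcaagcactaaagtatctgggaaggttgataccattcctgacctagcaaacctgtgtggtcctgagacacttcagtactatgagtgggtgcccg

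The Prox1 window shown holds 25 CpG dinucleotides and is 64.3% G and C, and that of C1ql2 holds 23 CpG at 67.3%. A second start of Prox1, not shown, holds 14 CpG at 57.3% and no searched motif. The Lct window holds 1 CpG at 44.7%, and that of Tdo2 holds 4 at 47.7%. Over the 14 windows of the granule cell genes the CpG count ran from 1 to 40 with a median of 15.5, and the median over all 32851 windows of the table was 7. CAGATG occurs in 1 of the 14 windows, the Prox1 window shown, beginning at position -179 from the start, and in 17.2% of all windows. TATAAA occurs in 3 of the 14 windows, on the minus strand at -34 in Prox1, at -229 in Tdo2 and at -248 in another start of Ahcyl2, and in 13.6% of all windows. TGACGTCA occurs in 0 of the 14 and in 1.79% of all. These letters describe the windows only. The 9 genes thus had no searched motif in common, and their CpG counts differed widely.

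Prox1 is the transcription factor that specifies and maintains granule cell identity. In experiment 1 it read 10.27, 10.28 and 10.27 in heterozygous mice, against 9.86, 9.18, 10.11 and 10.09 in wild-type mice. Its values in experiment 2 were 8.21, 8.93 and 9.05 in heterozygous mice, against 8.97, 8.30 and 8.77 in wild-type mice. The heterozygous mice of experiment 1 were nearly identical and all above their controls, whereas the genotypes of experiment 2 overlapped across the whole range. The genotype difference, heterozygous minus wild type, was 0.47 ± 0.25 in experiment 1 (standard error, SE, from limma), a 1.38-fold difference, and 0.05 ± 0.26 in experiment 2. Without wild-type replicate 2 it was 0.26 ± 0.21 in experiment 1.

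The genes of calcium and lipid signalling were Calb1, Trpc6, Dgkh and Ahcyl2. Trpc6 encodes a diacylglycerol-gated cation channel. It read 9.03, 9.21 and 9.17 in heterozygous mice of experiment 1, against 8.74, 8.37, 8.65 and 8.90 in wild-type mice, and 8.56, 8.71 and 8.57 in heterozygous mice of experiment 2, against 8.63, 8.35 and 8.26 in wild-type mice. The groups were apart in experiment 1, and in experiment 2 they overlapped only through 1 wild-type mouse that lay above 2 of the heterozygous ones. Its genotype difference was 0.47 ± 0.12 in experiment 1, or 0.37 ± 0.11 without wild-type replicate 2, and 0.20 ± 0.13 in experiment 2.

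Dgkh encodes diacylglycerol kinase eta, which removes the lipid that opens Trpc6. It read 10.50, 10.57 and 10.66 in heterozygous mice of experiment 1, against 10.37, 10.24, 10.46 and 10.39 in wild-type mice. In experiment 2 it read 10.22, 10.37 and 10.30 in heterozygous mice, against 10.30, 9.92 and 10.23 in wild-type mice. The groups of experiment 1 were apart by a small margin and those of experiment 2 overlapped. The differences were 0.21 ± 0.10 in experiment 1, or 0.17 ± 0.10 without wild-type replicate 2, and 0.15 ± 0.10 in experiment 2.

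Calb1 and Ahcyl2, a relative of the inositol trisphosphate receptor binding protein IRBIT, showed almost no genotype difference in experiment 1 with all arrays kept. Calb1 read 11.21, 11.12 and 11.04 in heterozygous mice of experiment 1, against 11.08, 11.43, 11.002 and 11.26 in wild-type mice, and 9.42, 9.72 and 9.90 in heterozygous mice of experiment 2, against 10.003, 9.26 and 9.71 in wild-type mice. Ahcyl2 read 11.77, 11.79 and 11.68 in heterozygous mice of experiment 1, against 11.83, 11.34, 11.94 and 11.85 in wild-type mice, and 10.28, 10.45 and 10.61 in heterozygous mice of experiment 2, against 10.41, 10.19 and 10.36 in wild-type mice. For both genes the genotypes overlapped in each experiment over all arrays, and the wild-type mice held the highest value of experiment 1. The overlap of Ahcyl2 in experiment 1 rested on wild-type replicate 2, at 11.34. Every other wild-type mouse there lay above every heterozygous mouse. The genotype difference of Calb1 was -0.07 ± 0.17 in experiment 1, or 0.01 ± 0.17 without wild-type replicate 2, and 0.02 ± 0.18 in experiment 2. That of Ahcyl2 was 0.00 ± 0.13 in experiment 1, or -0.13 ± 0.10 without wild-type replicate 2, and 0.13 ± 0.14 in experiment 2.

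**Figure D1:**
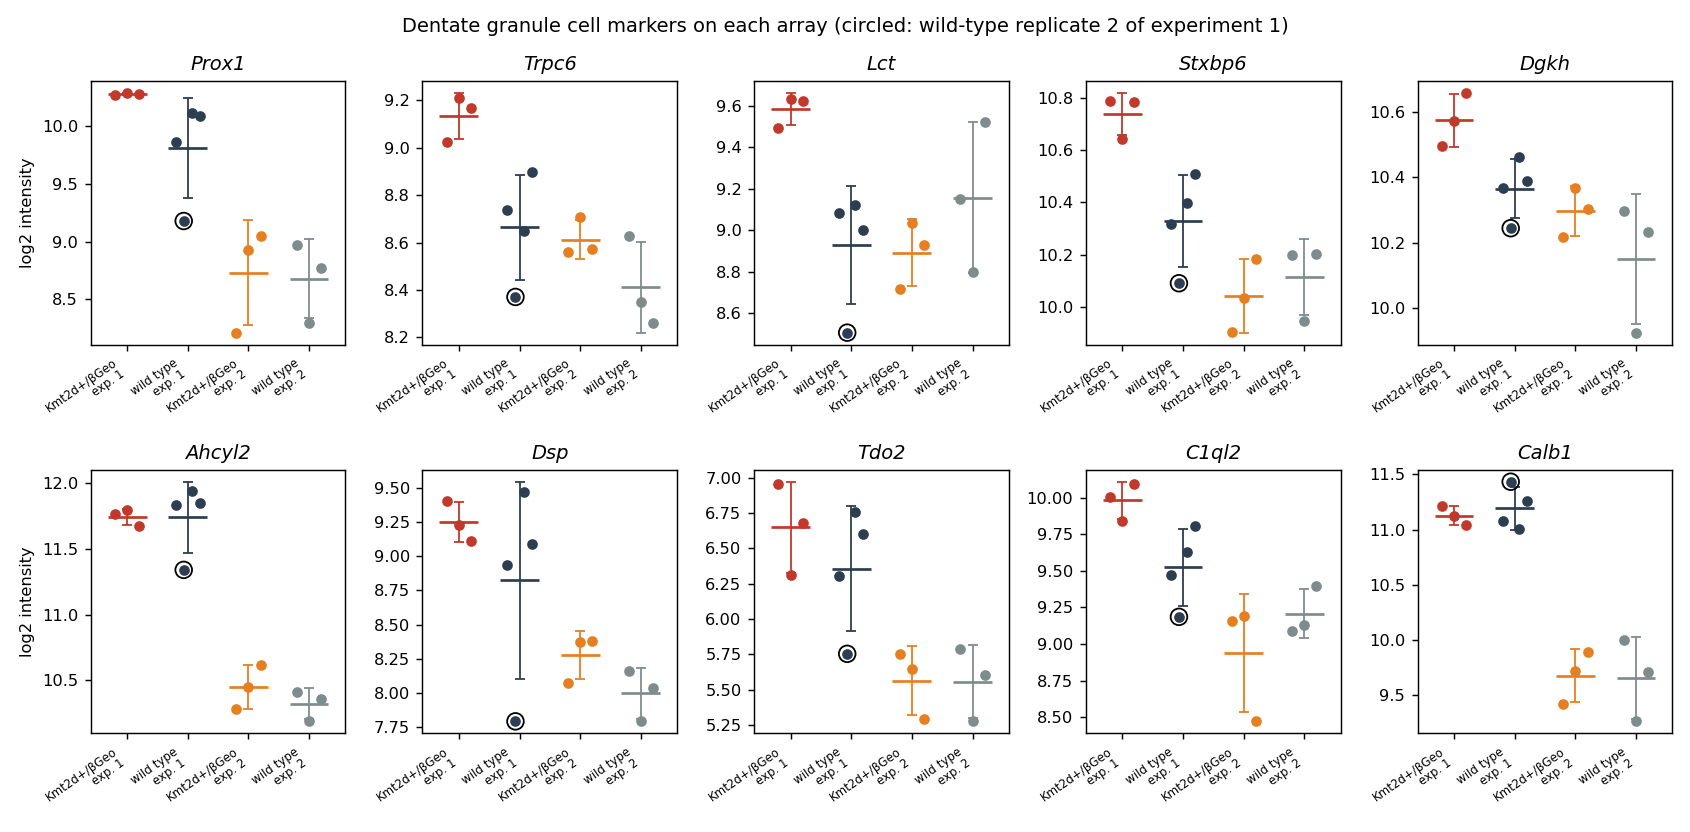
Log2 intensity (y axis) of the 10 granule cell genes in each mouse, 1 panel per gene, with the 4 groups on the x axis; points are mice, horizontal lines group means, error bars the SD, and the circle marks wild-type replicate 2 of experiment 1. Prox1, Ahcyl2 and Calb1 had every mouse of experiment 2 below every mouse of experiment 1, and in experiment 1 the heterozygous mice lay above all wild-type mice for 6 of the 10 genes.

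Genes of the synapse were C1ql2 and Stxbp6. C1ql2 encodes a secreted C1q-like protein that granule cells release at mossy fibre synapses, where it helps to place kainate receptors. It read 10.01, 9.84 and 10.10 in heterozygous mice of experiment 1, against 9.47, 9.19, 9.63 and 9.81 in wild-type mice. The values of experiment 2 were 9.16, 9.19 and 8.47 in heterozygous mice, against 9.09, 9.13 and 9.40 in wild-type mice. The groups of experiment 1 were apart by a narrow margin, and in experiment 2 the lowest mouse was heterozygous and the highest wild type. The difference was 0.46 ± 0.18 in experiment 1, or 0.34 ± 0.18 without wild-type replicate 2, and -0.27 ± 0.19 in experiment 2.

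Stxbp6 encodes amisyn, a protein that binds the SNARE machinery of vesicle fusion. It read 10.79, 10.64 and 10.78 in heterozygous mice of experiment 1, against 10.32, 10.09, 10.40 and 10.51 in wild-type mice. Among mice of experiment 2 it read 9.91, 10.03 and 10.18 in heterozygous mice, against 10.20, 9.95 and 10.20 in wild-type mice. The heterozygous mice were all higher in experiment 1, and in experiment 2 none of them reached the 2 higher wild-type mice. The differences were 0.41 ± 0.11 in experiment 1, or 0.33 ± 0.10 without wild-type replicate 2, and -0.07 ± 0.12 in experiment 2.

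The last 3 genes are best known outside the brain. Lct encodes lactase, the intestinal enzyme that splits milk sugar. It read 9.49, 9.63 and 9.63 in heterozygous mice of experiment 1, against 9.09, 8.51, 9.12 and 9.001 in wild-type mice, and 8.72, 9.03 and 8.93 in heterozygous mice of experiment 2, against 9.15, 8.80 and 9.52 in wild-type mice. The gap between the genotypes in experiment 1 was wide, and in experiment 2 the 2 highest mice were wild type. Its genotype difference of 0.66 ± 0.17 in experiment 1, a 1.58-fold difference, exceeded those of the other 9 genes there, and it was 0.51 ± 0.15 without wild-type replicate 2. In experiment 2 the difference was -0.26 ± 0.19.

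Dsp encodes desmoplakin, which anchors intermediate filaments to desmosomes. It read 9.41, 9.23 and 9.11 in heterozygous mice of experiment 1, against 8.94, 7.79, 9.47 and 9.09 in wild-type mice, and 8.07, 8.37 and 8.38 in heterozygous mice of experiment 2, against 8.16, 7.79 and 8.04 in wild-type mice. Both experiments overlapped, and 1 wild-type mouse of experiment 1 lay far below the rest. The difference of 0.43 ± 0.29 in experiment 1 was 0.08 ± 0.15 without that mouse, wild-type replicate 2, and it was 0.28 ± 0.31 in experiment 2.

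Tdo2 encodes tryptophan 2,3-dioxygenase, which opens the kynurenine pathway in liver. It read 6.95, 6.31 and 6.68 in heterozygous mice of experiment 1, against 6.31, 5.75, 6.76 and 6.60 in wild-type mice, and 5.75, 5.65 and 5.29 in heterozygous mice of experiment 2, against 5.79, 5.27 and 5.60 in wild-type mice. Genotypes overlapped in both experiments. The difference was 0.29 ± 0.23 in experiment 1, or 0.09 ± 0.19 without wild-type replicate 2, and 0.01 ± 0.25 in experiment 2.

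Across the set, 9 of 10 genes had a genotype difference above 0 in experiment 1, all but Calb1, with a median of 0.42, while 55.0% of all probe sets were above 0 there with a median of 0.01. Without wild-type replicate 2 the count was 9 of 10, all but Ahcyl2, and the median was 0.21. In experiment 2 the difference was above 0 for 7 of 10 genes with a median of 0.04, against 48.9% of all probe sets. Over both experiments it was above 0 for 9 of 10 genes, all but Calb1, with a median of 0.18 and 51.3% of all probe sets above 0. It was above 0 for 9 of 10, all but Ahcyl2, with a median of 0.13, without wild-type replicate 2. In experiment 1 every heterozygous mouse lay above every wild-type mouse for 6 of 10 genes (Prox1, Trpc6, Lct, Stxbp6, Dgkh and C1ql2), which held for 3.66% of all probe sets, with 6.12% apart in either direction. Without wild-type replicate 2 it was again 6 of 10, against 7.27% of all probe sets. Ahcyl2 was then apart in the other direction, for which no share over all probe sets was counted. In experiment 2 this held for 0 of 10 genes, against 4.65% of all probe sets, and 0 of 10 were apart in either direction, against 9.56%.

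The genes were chosen with these contrasts known, so nothing is read from the counts. Over all 35556 probe sets, limma called 0 for the genotype difference over both experiments, in experiment 1 and in experiment 2, and 0 for the interaction, the genotype difference of experiment 1 minus that of experiment 2 (adjusted p under 0.05, percent called 0.0). The counts at an unadjusted p under 0.05 were 1613 over both experiments, 976 in experiment 1, 3235 in experiment 2 and 2016 for the interaction. The interaction had a median of 0.28 over the 10 genes, with 8 of 10 above 0, and of 0.13 with 7 of 10 above 0 without wild-type replicate 2. It was 0.92 ± 0.26 for Lct, 0.73 ± 0.27 for C1ql2 and 0.48 ± 0.16 for Stxbp6, the 3 genes that were above 0 in experiment 1 and below 0 in experiment 2. Without that mouse the interaction of Lct was 0.78 ± 0.22 and that of Stxbp6 0.40 ± 0.14.

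**Figure D2:**
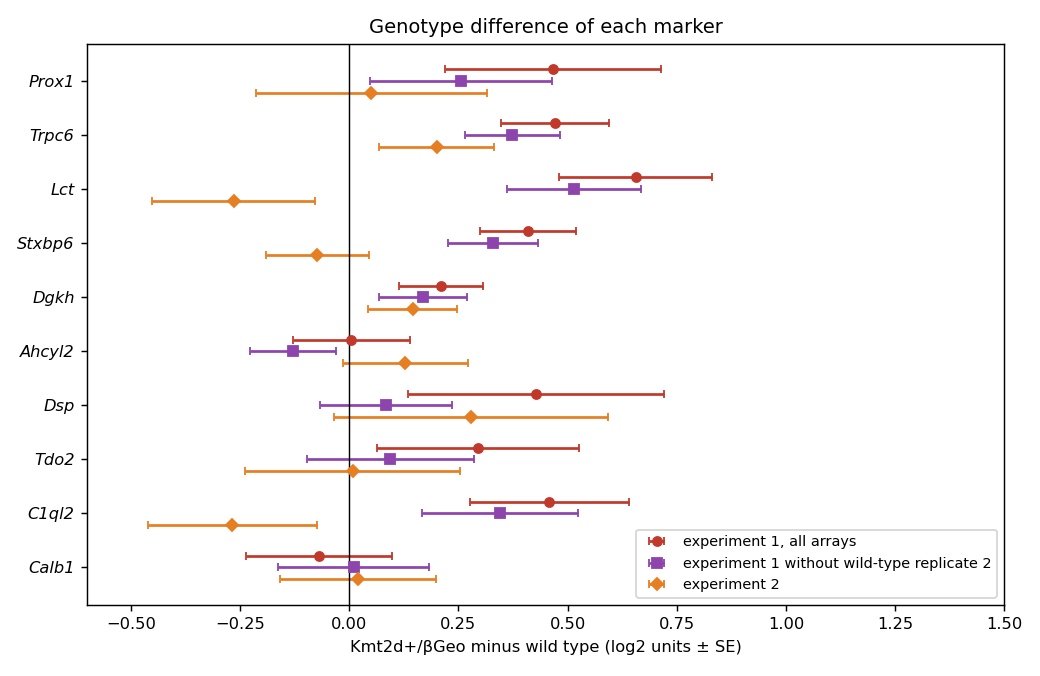
Genotype difference, heterozygous minus wild type, in log2 units with its standard error, for each of the 10 genes in experiment 1, in experiment 1 without wild-type replicate 2, and in experiment 2. Values of experiment 1 ran from -0.07 for Calb1 to 0.66 for Lct, and those of experiment 2 from -0.27 for C1ql2 to 0.28 for Dsp.

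To follow the genes together, the deviation of each gene from its mean over the arrays of the same experiment was averaged over the 10 genes, which gives 1 value per mouse. It was 0.23, 0.15 and 0.20 in heterozygous mice of experiment 1, against -0.12, -0.53, 0.04 and 0.03 in wild-type mice. In experiment 2 it was -0.11, 0.11 and 0.03 in heterozygous mice, against 0.13, -0.24 and 0.07 in wild-type mice. The heterozygous mice of experiment 1 were therefore grouped tightly above their controls, and the lowest mouse of each experiment was wild type. The pooled SD within groups was 0.19, and the difference of the group means was 0.33 in experiment 1 and 0.02 in experiment 2. The difference in experiment 1 was 0.20 without wild-type replicate 2.

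In the mean over its genes, a second list of 15 measured granule cell markers that are not among the 10 followed a like pattern in the same mice. Within experiment 1, 10 of the 15 were lowest and 3 highest in wild-type replicate 2. Its list mean was 0.11 to 0.16 in heterozygous mice of experiment 1, against -0.23 to 0.03 in wild-type mice. In experiment 2 it was -0.09 to 0.05 in heterozygous mice, against -0.15 to 0.16 in wild-type mice. The genotype difference in experiment 1 was above 0 for 13 of the 15, with a median of 0.24, and for 15 of 15 with a median of 0.18 without wild-type replicate 2. In experiment 2 it was above 0 for 7 of 15. Slc30a3, the zinc transporter of mossy fibre vesicles, differed by 0.45 ± 0.14 in experiment 1, and Fam163b by 0.36 ± 0.12, or by 0.33 ± 0.11 and 0.26 ± 0.10 without that mouse. The list was drawn up with earlier results of these data known.

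Genes related to the 10 by family or complex were spread around 0. Of 33 measured relatives, among them the other Trpc channels, diacylglycerol kinases, C1ql proteins and inositol trisphosphate receptors, 13 were above 0 in experiment 1 with a median of -0.01, and 13 with a median of -0.05 without wild-type replicate 2. Stxbp3, a partner of syntaxins, differed by -0.20 ± 0.09, and the diacylglycerol kinase gene Dgkk by -0.49 ± 0.23, or by -0.70 ± 0.18 without that mouse. Of CA1 pyramidal cell markers 4 of 10 were above 0 with a median of -0.02, but 1 of 10 with a median of -0.04 without that mouse. CA3 and CA2 markers had 11 of 14 above 0 and a median of 0.13, or 12 of 14 and 0.14 without it. Immature dentate neuron markers had 5 of 12 above 0 and a median of -0.03, but 2 of 12 and -0.08 without it. Among them Eomes, a factor of intermediate progenitors, differed by -0.44 ± 0.14 and the proliferation gene Mki67 by 0.17 ± 0.13.

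Markers of tissue that borders the hippocampus, and of the hilar mossy cells within it, also differed between these groups of mice. The mean over 8 septal genes was -0.35 to -0.26 in heterozygous mice of experiment 1, against 0.05 to 0.38 in wild-type mice, and 0 of 8 were above 0 in the genotype difference, with a median of -0.58, or 1 of 8 with a median of -0.46 without wild-type replicate 2. For 11 choroid plexus genes the mean was -0.63 to -0.31 in heterozygous mice, against -0.60 to 0.78 in wild-type mice, and 0 of 11 were above 0, with a median of -0.78, or of -1.19 without that mouse. Ependymal genes were at -0.36 to -0.12 in heterozygous mice, against 0.05 to 0.27 in wild-type mice, with 0 of 12 above 0 in either case. Mossy cell genes were at -0.22 to -0.12 in heterozygous mice, against 0.09 to 0.21 in wild-type mice, with 3 of 9 above 0 and Glp1r at -1.12 ± 0.36, or 2 of 9 and -1.52 ± 0.20 without that mouse. The mossy cell list shares Drd2 with the striatal one, and by the median over its 9 genes wild-type replicate 2 read -0.09, within the heterozygous range of -0.15 to -0.07. Of the remaining lists in experiment 1, genes above 0 were 0 of 11 for myelin with a median of -0.25, 3 of 12 for meninges (-0.15), 7 of 12 for inhibitory neurons (0.03), 8 of 10 for astrocytes (0.06), 5 of 9 for microglia (0.03) and 6 of 10 for cortex and thalamus (0.09). With that mouse left out the counts were 0 of 11 for myelin (-0.21), 0 of 12 for meninges (-0.28), 5 of 12 for inhibitory neurons (-0.05), 4 of 10 for astrocytes (-0.01), 5 of 9 for microglia (0.04) and 5 of 10 for cortex and thalamus (-0.02). In experiment 1 each wild-type mouse thus lay below the heterozygous mice in the granule cell mean and above them in the septal and ependymal means. All these lists were drawn up with earlier results of these data known, so nothing is read from the opposite directions.

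In experiment 2 the septal mean was -0.31 to -0.04 in heterozygous mice, against 0.07 to 0.22 in wild-type mice. The septal list was drawn up with earlier results of these data known, so this is not an independent repeat. In the genotype difference of experiment 2, 0 of 8 septal genes were above 0. For the choroid plexus genes 11 of 11 were above 0 there with a median of 0.38, but the mice of the 2 genotypes overlapped. Their mean was -0.25 to 0.69 in heterozygous mice, against -0.86 to 0.45 in wild-type mice. Striatal genes were at -0.46 to -0.32 in heterozygous mice of experiment 1, against -0.28 to 2.03 in wild-type mice, and at -0.29 to -0.28 in wild-type mice other than replicate 2. In their genotype difference 0 of 10 were above 0 with a median of -0.71, or 4 of 10 with a median of -0.07 without that mouse. Array intensities have no true zero, so the absence of a marker cannot be read from them. The part of bordering tissue in the granule cell values was not tested.

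**Figure D3:**
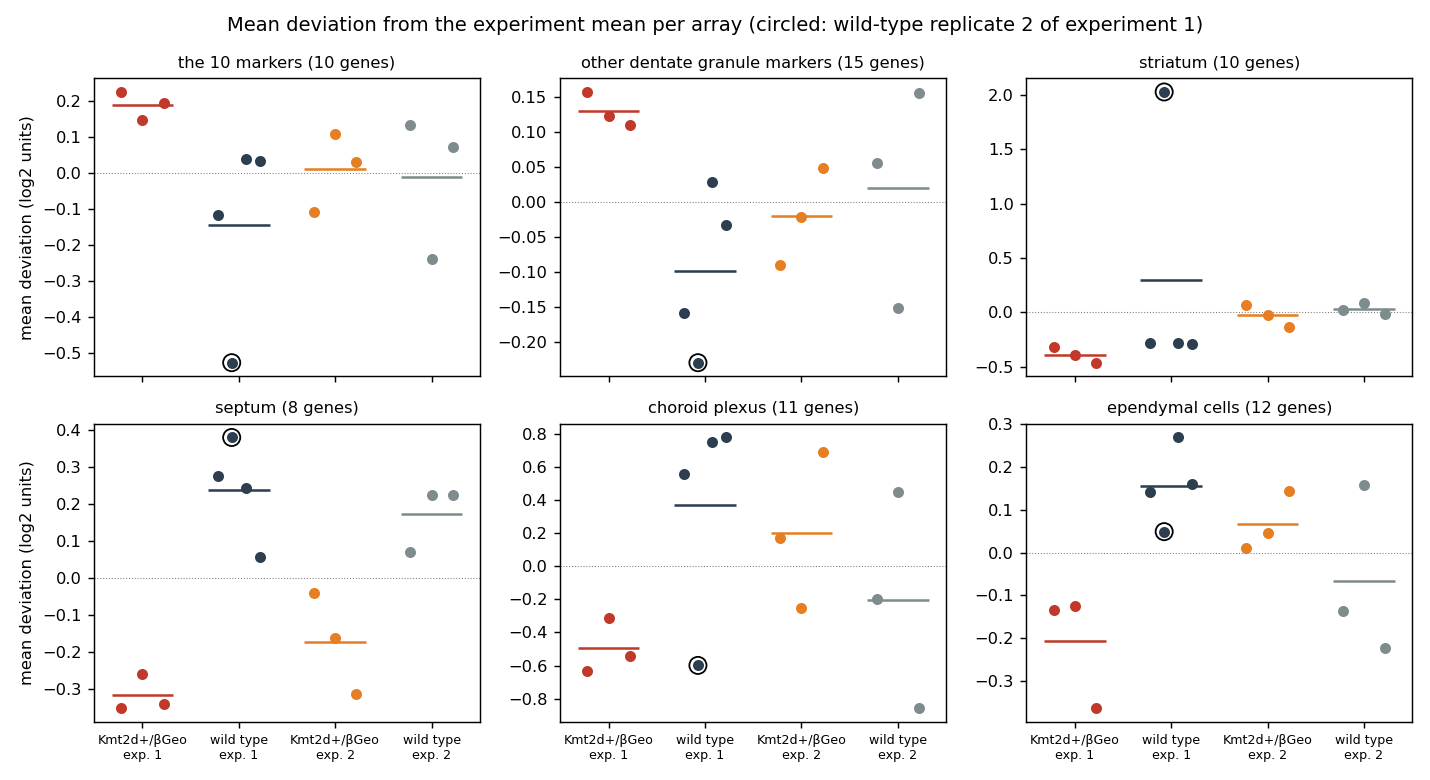
Mean deviation from the experiment mean, in log2 units, for the 10 granule cell genes and for other marker lists, 1 point per mouse in the 4 groups, with lines at the group means and a circle around wild-type replicate 2 of experiment 1. The granule cell mean was 0.15 to 0.23 in heterozygous mice of experiment 1, against -0.53 to 0.04 in wild-type mice, while the septal mean was -0.35 to -0.26 in heterozygous mice, against 0.05 to 0.38 in wild-type mice.

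How the 10 genes vary among themselves was described by Pearson correlations of their deviations from the experiment means. These run over the same mice and therefore have the array, genotype and dissection in common. The deviations keep the genotype difference on which the genes were chosen, which can favour positive correlations. Over 13 arrays the 36 pairs without Calb1 had a median r of 0.65, all 36 positive, from 0.02 to 0.88. The 9 pairs with Calb1 had a median of -0.04. Without wild-type replicate 2 the 36 pairs had a median of 0.34, 29 positive, from -0.70 to 0.79, and the 9 pairs with Calb1 had a median of 0.48, with 8 positive. The low correlations of Calb1 over all arrays thus rest on 1 mouse. Among the other genes, 28 of the 36 pairs reached an r of 0.5 over all arrays and 14 did without that mouse.

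Prox1 and Calb1 had an r of 0.23 over 13 arrays, 0.81 without wild-type replicate 2 and 0.92 over the 6 arrays of experiment 2. C1ql2 and Ahcyl2 went the other way, at 0.02 over 13 arrays and -0.70 over 12. In experiment 2 alone, where no array had high striatal markers, the 36 pairs had a median of 0.40 with 27 positive, and the 9 pairs with Calb1 a median of 0.72 with 8 positive.

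**Figure D4:**
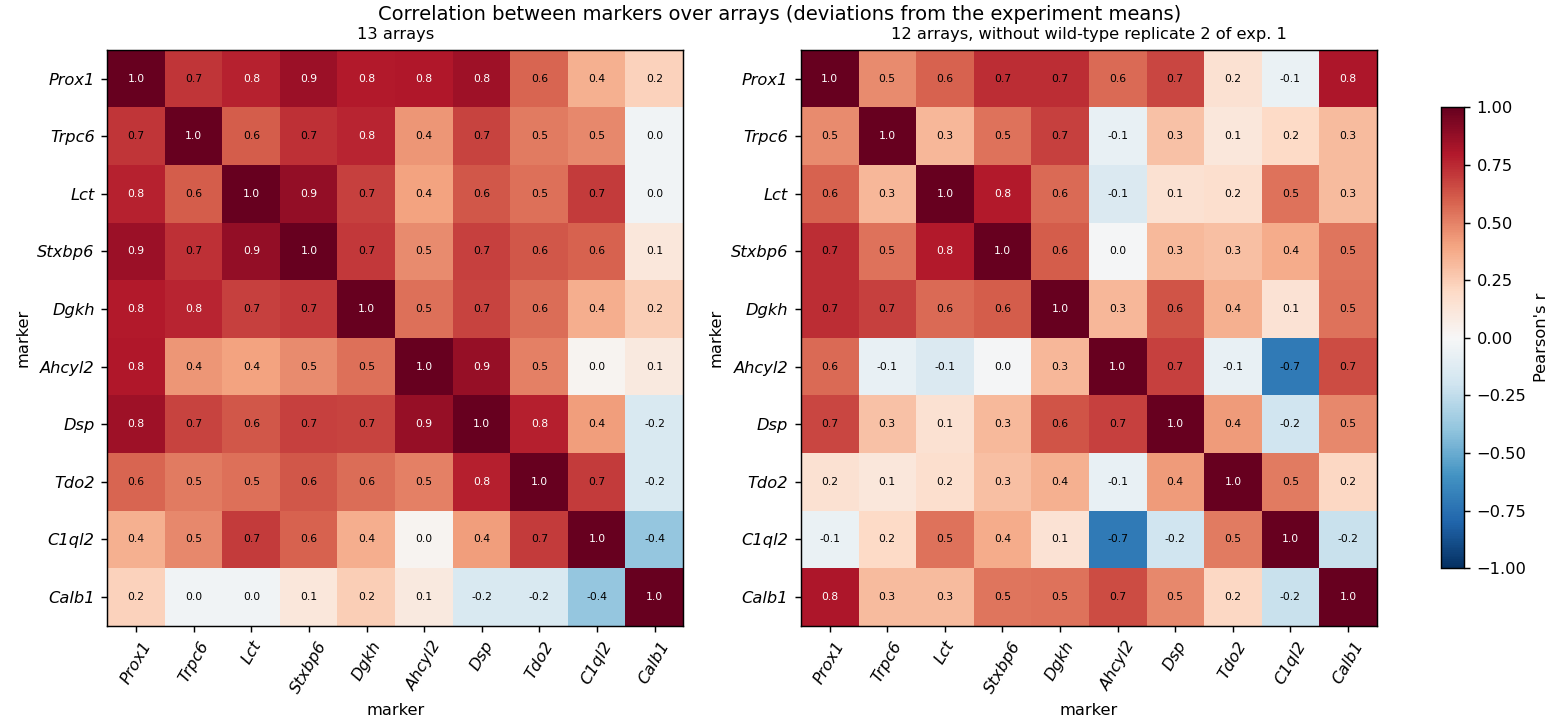
Pearson r between the 10 granule cell genes, from deviations from the experiment means, over all 13 arrays and over the 12 arrays without wild-type replicate 2; colour runs from -1 to 1. The median of the 9 pairs with Calb1 is -0.04 over 13 arrays and 0.48 over 12 arrays.

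Among all 21779 other probe sets with 1 gene symbol, the genes most like the mean of the 10 over the 13 arrays were found by the same correlation. Npnt, an extracellular matrix ligand of integrins, had an r of 0.97, and Slc30a3 and the RNA editing enzyme relative Adarb2 each had 0.96. Then came Napb, Clvs2, Prdm8 and Pcdh19, each at 0.94, Plekha2 and Thrsp at 0.92 and Htra4 at 0.91. Only Npnt and Slc30a3 of these 10 were on the second list of granule cell markers. Of that list, Gabrd at -0.63, Bcl11b at -0.48 and Pdzd2 at -0.24 ran opposite over the 13 arrays, and the others had an r of 0.49 to 0.97. Without wild-type replicate 2 the whole list ran from 0.04 to 0.94. The median r over all 21779 was 0.04, and 13 probe sets reached 0.9.

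The 5 most opposed genes were Pcp4l1 at -0.96, the homeodomain genes Meis2 at -0.94 and Pbx3 at -0.93, and Gsg1l and Sorcs1, each at -0.91. Without wild-type replicate 2, 6 of the 10 most like genes and 1 of the 5 most opposed were named again. Npnt kept an r of 0.94 and Slc30a3 of 0.91, while Meis2 stood at -0.83 and Pbx3 at -0.81. A mean over the 10 genes is lowest in that mouse, so genes high or low in it are favoured by this measure.

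The comparison of experiment 2 with experiment 1 was not used to choose the genes and was tested. Saline injections, the run of the arrays and a possible normalisation of each run on its own differ together between the experiments, and their parts cannot be told apart. Of the 10 genes, 9 were lower in experiment 2 and 0 higher (limma, adjusted p under 0.05 over all 35556 probe sets), while 27.5% of all probe sets were called lower, 45.9% higher and 73.4% either way. The median difference was -0.78 over the 10 genes and 0.15 over all probe sets. All 10 genes are annotated and lie above the dimmest 30% of probe sets. With 1 probe set per gene, 7054 of 19938 were called lower and 8331 higher. With the dimmest 30% left out, 9235 of 24889 were called lower and 10560 higher. Again 9 of 10 were lower without wild-type replicate 2 of experiment 1, against 9786 of 35556 probe sets.

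Calb1 was at 9.26 to 10.003 in experiment 2, against 11.002 to 11.43 in experiment 1, and differed by -1.49 ± 0.12, a 2.82-fold lower level (limma adjusted p = 8.67e-08). Ahcyl2 was at 10.19 to 10.61 in experiment 2, against 11.34 to 11.94 in experiment 1, and differed by -1.37 ± 0.10, or 2.58-fold (limma adjusted p = 2.63e-08). Prox1 was at 8.21 to 9.05 in experiment 2, against 9.18 to 10.28 in experiment 1, and differed by -1.32 ± 0.18, or 2.5-fold (limma adjusted p = 2.02e-05). For these 3 of 10 genes the experiments did not overlap, which held in this direction for 20.8% of all probe sets.

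The next 6 genes overlapped between the experiments through their lowest mice of experiment 1. In all 6 the lowest mouse of experiment 1 was wild-type replicate 2. For all but Trpc6 no other mouse of experiment 1 overlapped. How many of all probe sets were apart without wild-type replicate 2 was not counted. For Dgkh the next lowest mouse, at 10.368, was barely above the highest of experiment 2, at 10.3679. Tdo2 differed by -0.93 ± 0.17 (limma adjusted p = 0.000196) and Dsp by -0.89 ± 0.21 (limma adjusted p = 0.00152). Tdo2 was dim in experiment 2, at 5.27 to 5.79 on arrays with medians of 7.04 to 7.08. C1ql2 differed by -0.66 ± 0.16 (adjusted p = 0.0024), Stxbp6 by -0.44 ± 0.10 (adjusted p = 0.00154), Trpc6 by -0.38 ± 0.09 (adjusted p = 0.00254) and Dgkh by -0.24 ± 0.07 (adjusted p = 0.00535). Lct overlapped widely, differed by -0.20 ± 0.18 and did not pass (adjusted p = 0.314).

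These values depend on how the arrays are scaled. The median log2 intensity of an array lay at 7.04 to 7.08 in experiment 2, against 6.74 to 6.90 in experiment 1. With each array centred on its median, the median of all probe sets shifted to -0.10 and 10 of 10 genes were lower, with Lct at -0.45 (adjusted p = 0.0423). With quantile normalisation over the 13 arrays the median of all probe sets was 0.00 and 5 of 10 were lower. These 5 were Ahcyl2 at -1.20, Prox1 at -1.07, Dsp at -0.73, Calb1 at -1.26 and Tdo2 at -1.25. C1ql2, Stxbp6 and Trpc6 then missed the threshold at -0.37, -0.19 and -0.17, and Lct at 0.07 and Dgkh at 0.00 had turned sign. The split of higher against lower calls over all probe sets was 16316 to 9770 as deposited, 8860 to 14695 centred and 10725 to 11067 with quantile normalisation.

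The experiments were also set side by side within each genotype. These contrasts contain the genotype difference of experiment 1, on which the genes were chosen, so their values are a description and nothing is read from the counts. Within heterozygous mice 10 of 10 genes were lower in experiment 2. Of all probe sets 23.3% were called lower, 34.6% higher and 57.9% either way. With quantile normalisation 7 of 10 genes were lower, against 8765 of 35556 probe sets. Within wild-type mice 5 of 10 were lower (Prox1, Ahcyl2, Dsp, Tdo2 and Calb1), against 24.6% of all probe sets called lower, 39.6% higher and 64.2% either way. The count was 8 of 10 without wild-type replicate 2 of experiment 1, against 8740 of 35556 probe sets called lower. With quantile normalisation it was 4 of 10, against 9179 of 35556. Calb1 differed by -1.45 ± 0.18 in heterozygous mice and by -1.53 ± 0.17 in wild-type mice, and Ahcyl2 by -1.30 ± 0.14 in heterozygous and -1.42 ± 0.13 in wild-type mice. Lct differed by -0.69 ± 0.19 in heterozygous mice and by 0.23 ± 0.17 in wild-type mice. With quantile normalisation its difference in wild-type mice was 0.49 ± 0.17 and was called higher, the reverse of the other called genes.

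**Figure D5:**
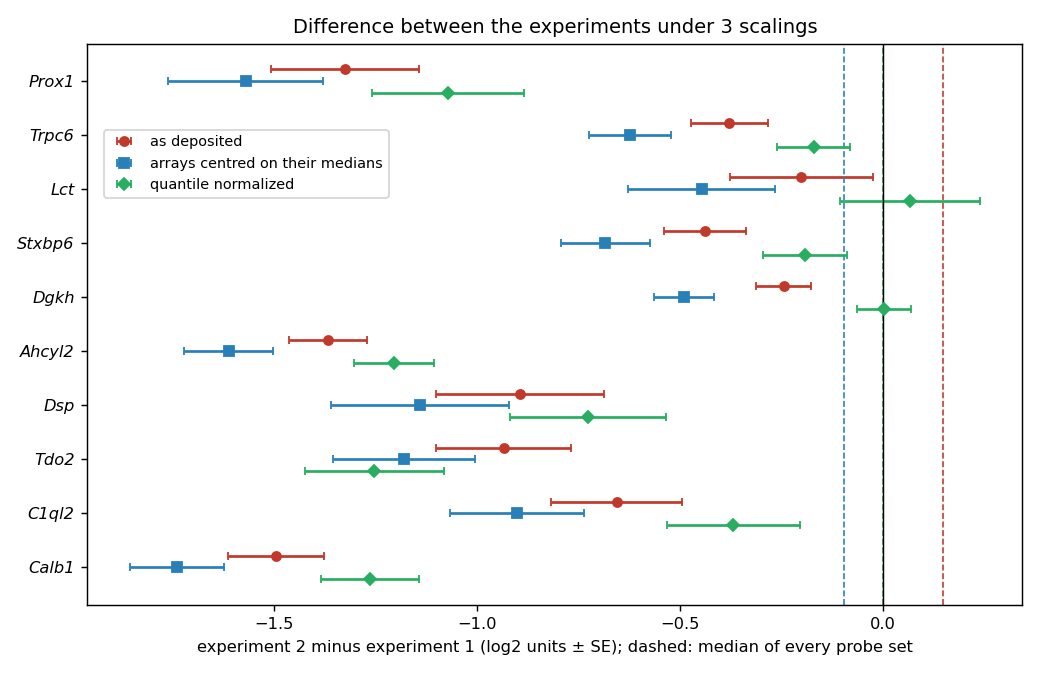
Difference of experiment 2 minus experiment 1, in log2 units with its standard error, for the 10 granule cell genes as deposited, with arrays centred on their medians and with quantile normalisation; dashed lines are the medians of all probe sets. Calb1, Ahcyl2 and Prox1 were lower in experiment 2 by over 1 unit under all 3 scalings, while Lct lay at -0.20 as deposited, -0.45 centred and 0.07 with quantile normalisation.

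Genes called lower in experiment 2 were found in other lists too, to differing extents. The second granule cell list had 9 of 15 genes lower and 0 higher, with a median of -0.40. Synpr, the synaptic vesicle protein synaptoporin of mossy fibres, differed by -1.45 ± 0.12 (adjusted p = 1.96e-07) and the Notch coactivator gene Maml2 by -0.86 ± 0.09 (adjusted p = 1.5e-06). Of 33 relatives of the 10 genes, 19 were lower and 6 higher, with C1ql1 at -1.46 ± 0.08 (adjusted p = 2.4e-09) and Stxbp5, tomosyn, at -1.30 ± 0.07 (adjusted p = 2.26e-09). CA1 markers had 8 of 10 lower and 0 higher, and CA3 and CA2 markers 8 of 14 lower and 1 higher.

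Astrocyte genes had 9 of 10 lower and 1 higher. The water channel gene Aqp4 of that list differed by -1.68 ± 0.06 (adjusted p = 6.84e-11) and the glutamate transporter gene Slc1a2 by -0.99 ± 0.05 (adjusted p = 5.6e-10). Inhibitory neuron genes had 6 of 12 lower and 1 higher, mossy cell genes 6 of 9 lower and 2 higher, and ependymal genes 5 of 12 lower and 5 higher. Microglial genes had 4 of 9 lower and 3 higher, with C1qa at 1.73 ± 0.06 (adjusted p = 1.73e-11). Whether the granule cell genes differed more than the genes of these lists was not tested.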

How the data were processed

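RNA from whole hippocampus of 13 mice was hybridised to 13 arrays, 1 mouse per array per the labels. The authors deposited log2 intensities made with RMA in oligo, per the submitters' processing notes, which give no version and do not say whether all arrays were normalised together. Gene names came from the platform annotation, in which 21789 of 35556 probe sets had 1 gene symbol, 1621 had several and 12146 were not listed. No filter was applied and 0 columns of values were left unused. Models were fitted to every probe set with limma 3.58.1 in R 4.3.3, either with genotype and experiment as terms or on the 4 groups, two-sided, with p-values adjusted by the Benjamini-Hochberg method and a threshold of 0.05. Scripts were checked on simulated data.

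The genes and the 16 other lists (211 genes, 194 measured) were chosen with earlier results of these data known. Named are the 10 genes, up to 2 of lowest p in the lists described, the 10 most and 5 least like genes, and Kmt2d. Outside this rule, Drd1 and Drd2 were named as defining striatal markers after their values were seen. Gabrd, Bcl11b and Pdzd2 were named as the markers of the second granule cell list that ran opposite to the 10. Sequences are from RefSeq. The number of arrays limits the precision.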

Additional observations from a re-analysis of the deposited data

Results flagged for a closer look

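Each of the 10 granule cell genes and the mean of each of 17 lists (the 10 genes among them) was examined in the 4 wild-type mice of experiment 1, the only group large enough, for a mouse far from the others by Dixon's ratio, whose critical value is 0.829 for 4 mice. Of 27 such groups of values 3 had one, and chance gives about 1 in 20. All 3 were list means of wild-type replicate 2: striatum at 2.03, choroid plexus at -0.60 and meninges at -0.47. The striatal mean of the other 3 wild-type mice was -0.29 to -0.28, their choroid plexus mean was 0.56 to 0.78 and their meningeal mean was 0.22 to 0.30. No single granule cell gene met the criterion in this group, although 9 of 10 were lowest in this mouse.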

How the results depend on the processing

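With 3 or 4 mice per group, only the experiment difference was tested for these genes. The count of genes lower in experiment 2 was 9 as deposited, 10 centred and 5 with quantile normalisation, where Lct (0.066) and Dgkh (0.0026) turned sign. It was 9 whichever mouse was left out. In heterozygous mice it was 10 as deposited, 7 with quantile normalisation and 8 to 10 with each mouse left out. In wild-type mice it was 5 as deposited, 9 centred, 8 with array weights and 4 with quantile normalisation, where Lct was called higher. It was 8 without the 3 arrays that stood apart (wild-type replicates 2 and 3 of experiment 1 and heterozygous replicate 3 of experiment 2). With each mouse left out it was 4 to 8. Of 35556 probe sets, those called lower in wild-type mice numbered 8735 as deposited, 12412 centred, 9025 with array weights and 9179 with quantile normalisation. Without the 3 arrays 8281 were. Calls for genotype over all probe sets were 1 over both experiments with array weights. In experiment 1 they were 4 with 1 probe set per gene, 12 with array weights and 1 with only its own arrays. In experiment 2 they were 2 with the dimmest 30% left out, 3 with quantile normalisation, 2 with trend and robust fitting, and 0 to 19 with each mouse left out, 19 being without heterozygous replicate 1. The median genotype difference with each mouse left out was 0.21 to 0.49 in experiment 1, -0.14 to 0.18 in experiment 2 and 0.13 to 0.23 over both. The median of the interaction, the genotype difference of experiment 1 minus that of experiment 2, was 0.065 with array weights, 0.076 without the 3 arrays and 0.13 to 0.39 with each mouse left out. Of the 10 most like genes, 5 were named again from deviations from group means and 6 without wild-type replicate 2. The causes were not tested.

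Replicate numbers recur in each group but mark no shared litter or day. Over 18 pairs of arrays with the same number, the correlation of deviations was -0.25 to 0.17, and 1 of 12 arrays correlated best with its own number. With a replicate block, 9 genes were lower in experiment 2, 9 in heterozygous and 4 in wild-type mice. The medians with the block were 0.20 over both experiments, 0.49 in experiment 1, 0.04 in experiment 2 and 0.36 for the interaction, with 0 calls for genotype.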
